A study of Mus musculus with 2 samples.

Results

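The genes described here are 49 genes of the p53 pathway and the apoptosis machinery, read in E14TG2a mouse embryonic stem (ES) cells. They were chosen by symbol for their known roles, with earlier results of these data known. All 49 had a row among the 28592 genes of the table. E14TG2a is a single established male line that is deficient in Hprt. The cells were grown in 2i/LIF medium, which holds them in the naive ground state by blocking the kinases MEK and GSK3 and by adding leukaemia inhibitory factor. The series has 1 group of 2 replicates (total RNA depleted of ribosomal RNA, stranded libraries) and no other condition, so levels were compared between genes and between the replicates, with no test of a treatment. Nothing in the labels ties the replicates to separate cultures, and their spread can be technical.

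Levels are FPKM, which count fragments per kilobase of a transcript relative to all mapped fragments, so that genes of different length can be set side by side. The columns summed to 946498 FPKM in replicate 1 and 928174 FPKM in replicate 2, and read counts are unknown. Detection means 1 FPKM or more in each replicate. The ES cell label was checked against 10 marker genes, and all 10 were detected, from Klf4 at 13.6 and 11.4 FPKM to Dppa5a at 7123 and 6972 FPKM in replicates 1 and 2. Of these 10 markers 1 was higher in replicate 2 (10%, against 48.8% of all detected genes). They summed to 9178 FPKM in replicate 1 and 8934 FPKM in replicate 2. None of 16 fibroblast or feeder cell markers was detected, but 14 of them were higher in replicate 2, where they summed to 5.56 FPKM, than in replicate 1, where they summed to 1.05 FPKM. In replicate 1 S100a4, Acta2, Dcn, Postn, Prrx1 and Fap were listed at 0, and in replicate 2 Lum was. The part of such cells in the differences between replicates given below was not tested.

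The transcription factor p53 is held low by the ubiquitin ligase Mdm2 and its partner Mdm4, and stress frees it to switch on genes that halt the cell cycle, repair DNA or start apoptosis. Apoptosis through mitochondria is set by the BCL2 family. Guardians such as Mcl1 restrain the pore-forming effectors Bax and Bak1, and BH3-only proteins relay stress signals against the guardians or to the effectors. Pores release cytochrome c and Diablo, Apaf1 then activates caspase 9, and inhibitor of apoptosis proteins (IAPs) such as Xiap hold caspases back. A separate route starts at death receptors on the cell surface and runs through the adaptor Fadd and caspase 8.

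Of the 49 genes 42 (85.7%) were detected, against 39.4% of all genes in the table and 50.5% of the 20741 genes that RefSeq types as protein-coding. The other 7 were Trp73, Gadd45g, Bcl2, Bik, Hrk, Pmaip1 and Fas, and none of the 49 was listed at 0 in either replicate. The median level of the 49 genes was 9.03 ± 0.292 FPKM (SD of the medians of the replicates, n = 2), against 0.233 FPKM for all genes and 1.21 FPKM for protein-coding genes. Among detected genes only, the medians lay closer, at 13.4 FPKM for the 42 members, 12.7 FPKM for all detected genes and 13.6 FPKM for detected protein-coding genes. A mean of at least 10 FPKM was reached by 23 of the 49 genes (46.9%), against 22.3% of all genes and 29.6% of protein-coding genes. A mean of at least 100 FPKM was reached by Bax, Ccng1, Mcl1 and Trp53inp1 (8.16% of the 49 genes), against 3.69% of all genes and 4.78% of protein-coding genes. RNA came from the whole culture, so a low level in every cell and expression in a few cells cannot be told apart.

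**Figure D1:**
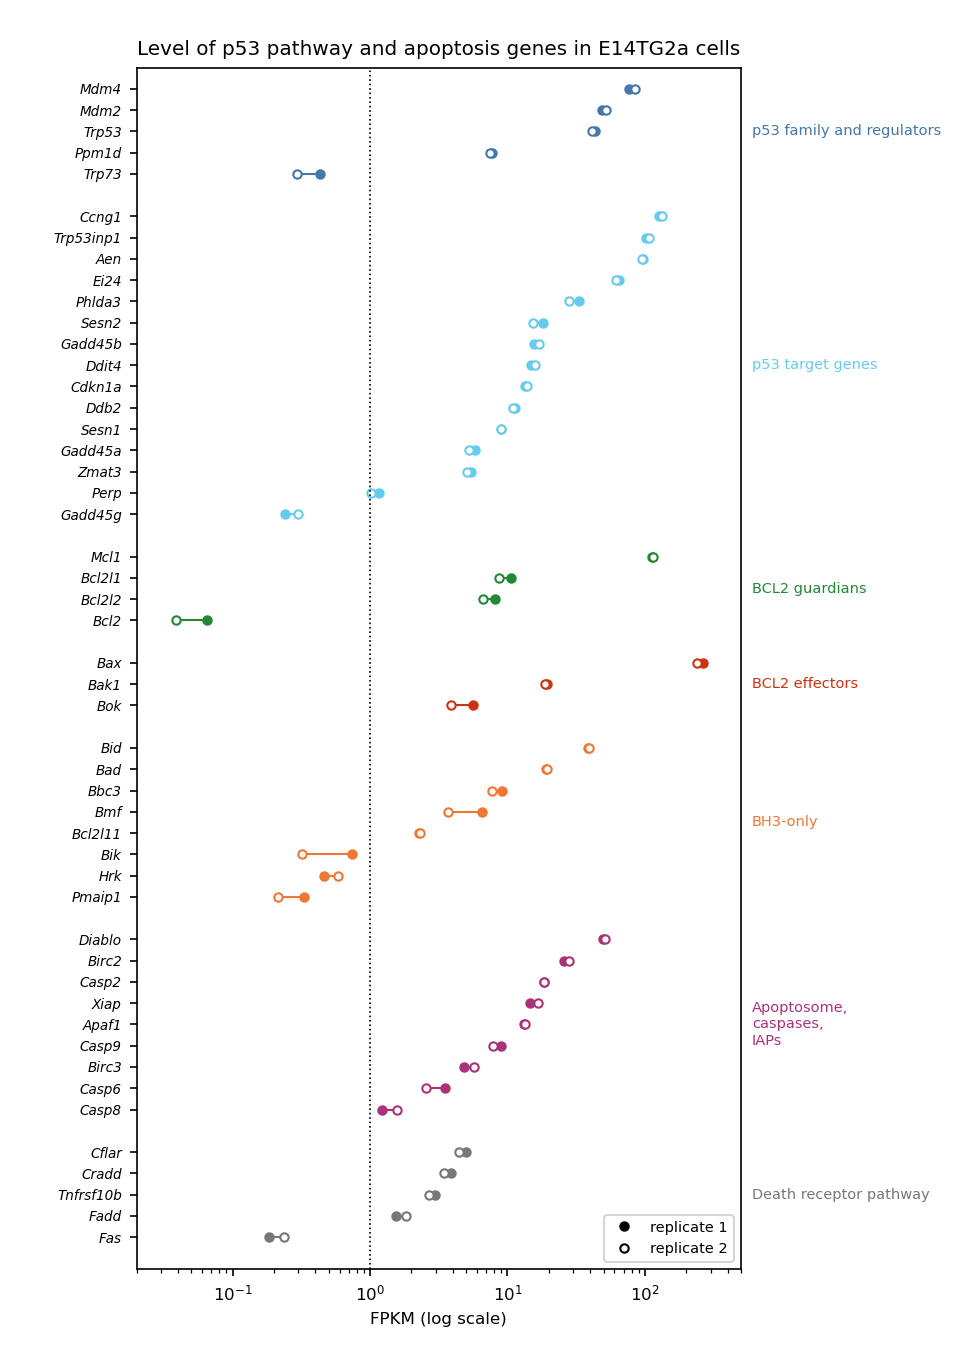
FPKM of each of the 49 genes on a log axis, grouped by role and ordered by mean within a role; filled points are replicate 1, open points replicate 2, and the dotted line is the detection limit of 1 FPKM. The genes run from Bcl2 (0.0655 and 0.0387 FPKM) to Bax (264 and 240.4 FPKM), and 7 genes lie left of the limit.

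**Figure D2:**
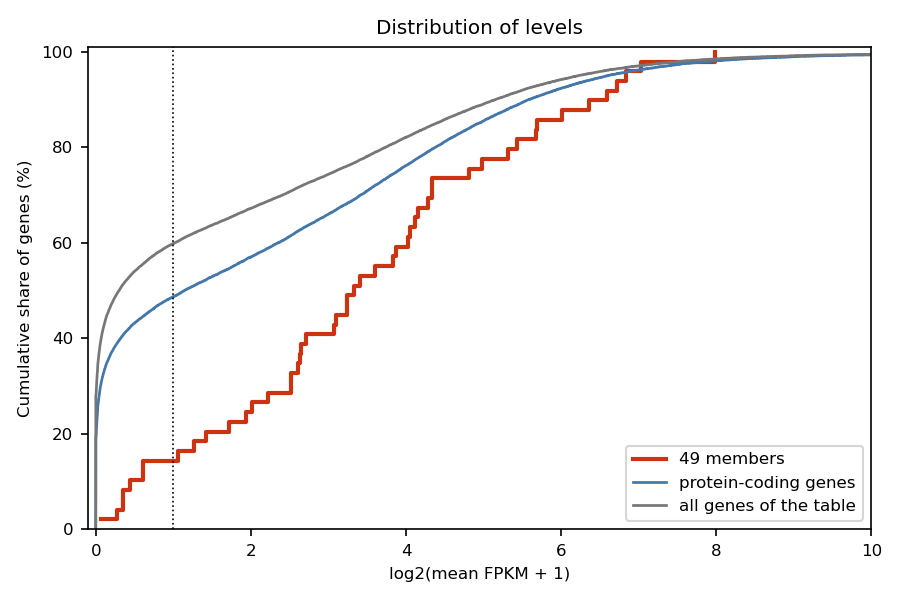
Cumulative share of genes (vertical axis, %) at or below each level (horizontal axis, log2 of mean FPKM + 1, drawn up to 10) for the 49 members, the protein-coding genes and all genes; the dotted line is a mean of 1 FPKM. The curve of the members lies below the others at low and middle levels and meets them at the highest levels; the medians are 9.03, 1.21 and 0.233 FPKM.

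Within the p53 family and its direct regulators, the genes of both p53 inhibitors had a higher FPKM than that of p53. Trp53 itself (chr11:69580348-69591873 on GRCm38) stood at 43.0 FPKM in replicate 1 and 41.5 FPKM in replicate 2. Mdm2, the ubiquitin ligase that marks p53 for breakdown and is itself a p53 target, stood at 49.03 and 52.2 FPKM. Mdm4, which binds p53 and blocks its activation domain, stood at 76.5 and 85.2 FPKM. The replicate values of the 3 genes did not overlap, so their order was Mdm4, Mdm2 and Trp53 in both libraries. Mdm2 was at 1.20 ± 0.0822 times the level of Trp53, and Mdm4 at 1.60 ± 0.0518 times the level of Mdm2 (mean and SD of the ratios within replicates, n = 2). The SD covers the spread between replicates and not any error in comparing different genes by FPKM.

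Ppm1d, a phosphatase that dampens p53 signalling and is induced by p53, was lower, at 7.77 and 7.41 FPKM. The p53 relative Trp73 was not detected, at 0.434 and 0.293 FPKM. The other relative, Trp63, which is outside the 49 genes, was at 0.0289 and 0.00577 FPKM. Of Trp53, Trp63 and Trp73, Trp53 alone was detected.

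Among 28 further genes that act upstream of p53, 24 were detected (85.7%, against 39.4% of all genes and 50.5% of protein-coding genes). The median of the 28 genes was 32.0 ± 0.306 FPKM. The highest were the nucleolar gene Npm1 at 3502 ± 83.7 FPKM and the ribosomal protein genes Rpl23 (3115 ± 19.0 FPKM), Rpl11 (2705 ± 118 FPKM) and Rpl5 (2394 ± 3.22 FPKM), whose proteins bind Mdm2 when ribosome assembly is disturbed. These genes have many near-identical pseudogenes, so their share of reads is uncertain. The 4 genes below detection were Trp63, the kinase gene Hipk2 (0.709 and 0.617 FPKM), Ppp1r13b (0.501 and 0.496 FPKM) and Ppp1r13l (0.614 and 0.277 FPKM). Cdkn2a, which encodes the Mdm2 inhibitor ARF as well as a cyclin-dependent kinase inhibitor, stood at 29.2 and 27.2 FPKM. It was singled out after its values were seen, and a level per gene does not tell its transcripts apart.

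The 15 target genes of p53 without a place in the BCL2 family or death receptor pathway covered a wide range, and 14 were detected. The highest were Ccng1, the gene of cyclin G1, at 127 and 133 FPKM, and Trp53inp1, a stress protein that also acts in autophagy, at 102 and 107 FPKM. Aen, a nuclease that takes part in apoptosis, followed at 96.1 and 95.7 FPKM, and Ei24, a membrane protein of the endoplasmic reticulum, at 65.3 and 62.1 FPKM. The replicate values of these 4 genes did not overlap. They made up 25.0%, 20.1%, 18.5% and 12.3% of the summed level of the 15 genes, which was 519 FPKM in both replicates.

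Cdkn1a (chr17:29090979-29100722), the cyclin-dependent kinase inhibitor p21 and the best-known arrest target of p53, was far below those genes at 13.3 and 13.9 FPKM. Ccng1 was at 9.55 ± 0.00283 times and Aen at 7.05 ± 0.225 times the level of Cdkn1a (SD, n = 2). Cdkn1a held 2.62 ± 0.0773% of the summed level of the 15 genes, although 74.7% of protein-coding genes were lower than Cdkn1a.

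Targets that restrain growth signalling lay in the middle of the range. Phlda3, which blocks the kinase Akt, stood at 33.2 and 28.0 FPKM. The sestrin genes, whose proteins restrain mTORC1, stood at 18.2 and 15.3 FPKM for Sesn2 and at 9.02 and 9.04 FPKM for Sesn1. Ddit4, another inhibitor of mTORC1, stood at 14.9 and 15.8 FPKM. Sesn2 exceeded Sesn1 in both replicates, whereas the values of Sesn2 and Ddit4 overlapped.

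Repair and stress genes of the p53 response differed between paralogs. Gadd45b stood at 15.6 and 17.0 FPKM, Gadd45a at 5.85 and 5.25 FPKM and Gadd45g at 0.241 and 0.301 FPKM. These stress sensors therefore kept the order Gadd45b, Gadd45a and Gadd45g with no overlap, and Gadd45b was at 2.95 ± 0.401 times the level of Gadd45a. Ddb2, which recognises ultraviolet damage, stood at 11.3 and 10.9 FPKM, and Zmat3, an RNA-binding zinc finger protein, at 5.43 and 5.03 FPKM. Perp, a membrane protein of cell junctions, was the detected member nearest the limit, at 1.17 and 1.01 FPKM.

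A further 35 p53 target genes, not among the 49, were read beside them, with a median of 10.2 ± 0.222 FPKM. Of the 35, 30 were detected (85.7%, against 39.4% of all genes and 50.5% of protein-coding genes). The highest were Rps27l, a ribosomal protein paralog, at 1339 ± 47.1 FPKM, the spindle gene Psrc1 at 146 ± 2.46 FPKM, the adenylate kinase Ak1 at 115 ± 8.56 FPKM and the metabolic phosphatase Tigar at 46.2 ± 1.501 FPKM. Reads of Rps27l could be shared with its close paralog Rps27 and with pseudogenes. The genes below detection were Ptpn14, Rprm, Bcl6, Steap3 and Dram1, the last of these at 0.112 and 0.0304 FPKM.

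The promoters of the p53 pathway genes were searched for the p53 half-site, the sequence of 10 bases that p53 binds in pairs. RefSeq promoter windows on GRCm38.p6, from 250 bases before to 50 bases after a transcription start, matched 42 of the 49 genes (58 windows, since 12 genes have more than 1 annotated start), and not Bik, Ddb2, Perp, Pmaip1, Tnfrsf10b, Trp53inp1 or Zmat3. The full half-site consensus with no mismatch was found in 13 of the 58 windows (22.4%, exact 95% binomial interval 12.5% to 35.3%), against 8.36% of all 32851 windows and 6.72% of the windows of detected genes. With 1 mismatch allowed outside the core, 33 of the 58 windows held one (56.9%, exact 95% binomial interval 43.2% to 69.8%), an interval that includes the shares of all windows (50.9%) and of the windows of detected genes (48.9%). The difference from the background was thus seen only for the exact consensus among these 2 settings. The consensus reads the same on both strands, so 1 search covers both. The matches belonged to 12 genes, and the windows of p53 core and target genes held 10 of the 13 (10 of 21 windows, against 3 of 37 windows of the other members). The share in the other members, 8.11% of windows, was near the 8.36% of all windows. This split follows the roles used here, and the other members are not a set of non-targets. They include Bbc3 and Fas, which are p53 targets placed in the BCL2 family and the death receptor pathway. Such sites can be part of why a gene is called a p53 target. The split, and the excess of the 58 windows over all windows, thus cannot be taken as independent of how the genes were chosen and grouped. A match describes letters, not a bound site, and sequence outside the windows was not searched. The overlapping windows of Aen share 1 match.

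The sequences below are shown because they are all the exact matches found in these genes, from the gene with the highest level to the lowest. Capitals mark the half-site, with up to 10 bases on either side, read 5′ to 3′ on the strand of the gene.
Bax, chr7:45467080-45467109, strand minus: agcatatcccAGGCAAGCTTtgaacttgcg
Ccng1, chr11:40755452-40755481, strand minus: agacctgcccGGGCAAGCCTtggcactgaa
Aen, chr7:78895927-78895956, strand plus: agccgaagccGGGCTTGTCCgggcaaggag
Ei24, chr9:36797325-36797354, strand minus: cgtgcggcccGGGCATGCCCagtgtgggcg
Mdm2, chr10:117710925-117710954, strand minus: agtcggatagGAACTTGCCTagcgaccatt
Trp53, chr11:69580274-69580303, strand plus: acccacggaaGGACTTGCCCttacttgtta
Birc2, chr9:7836777-7836806, strand minus: cagtcaacccAGGCTAGTCTcgaatttgcg
Cdkn1a, chr17:29090896-29090925, strand plus: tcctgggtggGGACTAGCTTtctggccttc
Cdkn1a, chr17:29090918-29090947, strand plus: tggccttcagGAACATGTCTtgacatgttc
Sesn1, chr10:41887256-41887285, strand plus: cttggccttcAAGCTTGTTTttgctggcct
Ppm1d, chr11:85311112-85311141, strand plus: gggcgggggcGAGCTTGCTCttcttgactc
Gadd45a, chr6:67037428-67037457, strand minus: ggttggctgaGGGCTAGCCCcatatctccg
Bmf, chr2:118544781-118544810, strand minus: cccaagtgaaGGGCTTGCCTcttgccgaat

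Ccng1, Bax and Mdm2, among the highest genes of their groups, had their match 185, 201 and 186 bases upstream of the start. Ei24, Gadd45a and both Cdkn1a matches lay closer, at 10, 40, 73 and 51 bases upstream. Both Cdkn1a distances are from the upstream start of that gene. The window of its other start (chr17:29093519-29093818) held no exact match. The matches of Aen and Birc2 lay within the first 50 bases after a start. Mcl1 (114 ± 1.85 FPKM) had no match, whereas Bmf (5.12 ± 2.00 FPKM) had 1.

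**Figure D3:**
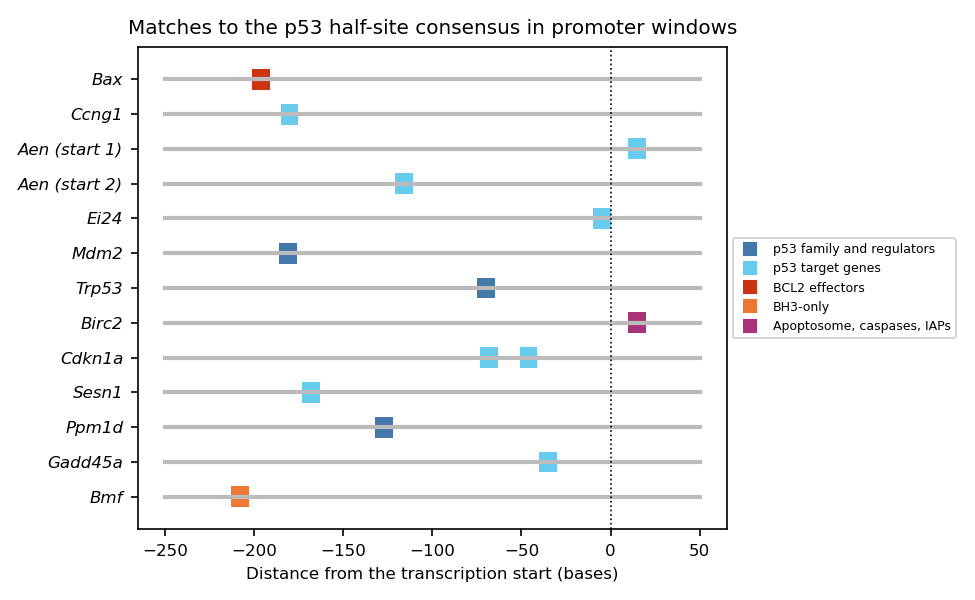
Position of each half-site match (coloured box, 10 bases) in the promoter windows that hold one (grey line, from 250 bases before to 50 bases after the start at the dotted line); genes run from highest mean FPKM at the top to lowest. Cdkn1a has 2 matches, the starts of Aen share 1, and colours give the role of the gene.

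A p53 site consists of a pair of half-sites. Pairs set at most 13 bases apart, with no more than 1 mismatch in the pair and none at the core C or G, were found in 2 of the 58 windows (3.45%), those of Cdkn1a and Ccng1, against 0.627% of all windows. With up to 2 mismatches there were 7 windows (12.1%), against 4.09% of all windows, and these included Bax. Without any mismatch, the exact half-sites of Cdkn1a formed the only pair in the members (1 of 58 windows, 1.72%, against 0.0731% of all windows), with a spacer of 12 bases. The pair search was added after the single matches had been seen, and its shares cannot be taken as independent of how the genes were chosen either. The pairs with the shortest spacer in these genes are shown with the half-sites in capitals and any spacer in lower case.
Cdkn1a, chr17:29090928-29090947, strand plus: GAACATGTCTTGACATGTTC
Ccng1, chr11:40755462-40755481, strand minus: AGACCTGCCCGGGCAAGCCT
Bax, chr7:45467079-45467099, strand minus: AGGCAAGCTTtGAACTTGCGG

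The whole windows of Cdkn1a, Ccng1, Bax and Mdm2 are given because they hold the pairs above or, for Mdm2, the match in the gene that closes the p53 feedback loop. Capitals mark exact half-sites.
Cdkn1a, chr17:29090729-29091028, strand plus: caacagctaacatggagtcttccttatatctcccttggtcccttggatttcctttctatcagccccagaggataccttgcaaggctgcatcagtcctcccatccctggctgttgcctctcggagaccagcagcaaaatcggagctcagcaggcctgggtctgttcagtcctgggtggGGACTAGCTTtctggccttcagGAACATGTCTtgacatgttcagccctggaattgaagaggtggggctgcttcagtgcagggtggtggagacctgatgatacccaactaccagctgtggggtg
Ccng1, chr11:40755237-40755536, strand minus: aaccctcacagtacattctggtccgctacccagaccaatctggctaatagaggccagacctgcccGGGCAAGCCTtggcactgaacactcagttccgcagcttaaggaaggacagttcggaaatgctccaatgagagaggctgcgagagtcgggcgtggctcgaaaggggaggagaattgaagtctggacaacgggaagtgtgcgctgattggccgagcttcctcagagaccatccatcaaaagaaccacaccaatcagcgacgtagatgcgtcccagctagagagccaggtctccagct
Bax, chr7:45466849-45467148, strand minus: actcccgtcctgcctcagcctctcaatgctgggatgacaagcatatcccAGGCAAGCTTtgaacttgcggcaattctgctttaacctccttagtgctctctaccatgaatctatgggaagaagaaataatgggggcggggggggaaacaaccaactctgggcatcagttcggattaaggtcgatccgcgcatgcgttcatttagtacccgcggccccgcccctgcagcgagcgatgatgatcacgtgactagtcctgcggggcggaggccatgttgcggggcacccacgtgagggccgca
Mdm2, chr10:117710709-117711008, strand minus: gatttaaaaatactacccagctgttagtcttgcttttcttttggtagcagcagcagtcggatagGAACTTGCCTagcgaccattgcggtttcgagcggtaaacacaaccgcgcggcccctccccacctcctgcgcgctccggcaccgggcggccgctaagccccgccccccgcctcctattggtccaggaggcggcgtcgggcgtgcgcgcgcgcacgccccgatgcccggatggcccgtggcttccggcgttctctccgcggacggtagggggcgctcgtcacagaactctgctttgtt

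The windows differ in base composition. The observed-to-expected ratio of CpG was 0.0892 in the Cdkn1a window, which lies at the upstream start of this gene, 0.603 in Ccng1, 0.771 in Bax and 1.12 in Mdm2. The window of the other Cdkn1a start had a ratio of 0.786. Over all 58 windows of the members the median ratio was 0.722, against 0.384 over all windows and 0.766 over the windows of detected genes. The windows of detected members had a median of 0.720 (52 windows) and those of members not detected a median of 0.794 (6 windows). Bcl2, the lowest of the 49 genes, had a window with a ratio of 1.02.

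In the BCL2 family, 1 gene dominated the guardians and 1 the effectors, while the summed level of the BH3-only genes was less concentrated. Among the guardians, which bind and restrain pro-apoptotic members, Mcl1 (chr3:95656944-95663179) stood at 112 and 115 FPKM and held 86.9 ± 1.77% of their summed level (SD, n = 2). Bcl2l1, the gene of BCL-XL, stood at 10.6 and 8.74 FPKM, and Bcl2l2, the gene of BCL-W, at 8.16 and 6.64 FPKM. Mcl1 was at 11.9 ± 1.79 times the level of Bcl2l1, and the values of Bcl2l1 lay above those of Bcl2l2 in both replicates. Bcl2 (chr1:106538176-106714290), the founding member, was the lowest of all 49 genes at 0.0655 and 0.0387 FPKM and was the only member under 0.1 FPKM in a replicate.

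Among the effectors, Bax (chr7:45461695-45466903) was the highest of the 49 genes, at 264 and 240.4 FPKM, and 98.1% of protein-coding genes were lower. Bak1, which can stand in for Bax at the mitochondrial membrane, stood at 19.3 and 18.9 FPKM. Bok, a less studied relative, stood at 5.62 and 3.87 FPKM. Bax held 91.4 ± 0.00919% of the effectors' summed level and was at 13.2 ± 0.660 times the level of Bak1. Bax was also at 2.22 ± 0.181 times the level of Mcl1 and above it in both replicates.

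The 8 BH3-only genes had a median level of 3.71 FPKM, below those of the effectors (19.1 FPKM) and the guardians (8.53 FPKM). Bid, which links caspase 8 to mitochondria, stood at 38.5 and 39.1 FPKM and held 51.7 ± 2.46% of their summed level. Bad, whose activity is set by phosphorylation, stood at 19.1 and 19.3 FPKM. Bbc3, the p53 target PUMA, stood at 9.15 and 7.72 FPKM, and Bcl2l11, the gene of BIM, at 2.29 and 2.30 FPKM. Pmaip1, the p53 target NOXA and a partner of Mcl1, was not detected, at 0.330 and 0.213 FPKM. The p53 targets of this class thus lay on both sides of the limit.

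Bik and Hrk were also below the limit, Bik at 0.742 and 0.318 FPKM and Hrk at 0.461 and 0.580 FPKM. Bmf, which senses loss of attachment, stood at 6.54 and 3.71 FPKM. It was the only detected member whose replicates were at least 1.5-fold apart on the FPKM + 1 scale, with a log2 ratio of -0.68 (replicate 2 over replicate 1). That is 1 of 42 detected members (2.38%), against 0.684% of all detected genes.

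Summed over each class, guardians stood at 131 and 130.5 FPKM, effectors at 289 and 263 FPKM and BH3-only genes at 77.1 and 73.3 FPKM. The guardians were at 0.373 ± 0.0206 times the level of effectors and BH3-only genes together (SD of the ratios within replicates, n = 2). Mcl1 held most of the guardian sum and Bax most of the effector sum, so this ratio rests largely on both genes. The ratio was 0.475 ± 0.0292 against the effectors alone and 1.74 ± 0.0565 against the BH3-only genes alone. By medians of the members in place of sums it was 1.71 ± 0.391, and without Mcl1 and Bax it was 0.172 ± 0.0166. These are RNA levels, and protein amounts were not measured.

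**Figure D4:**
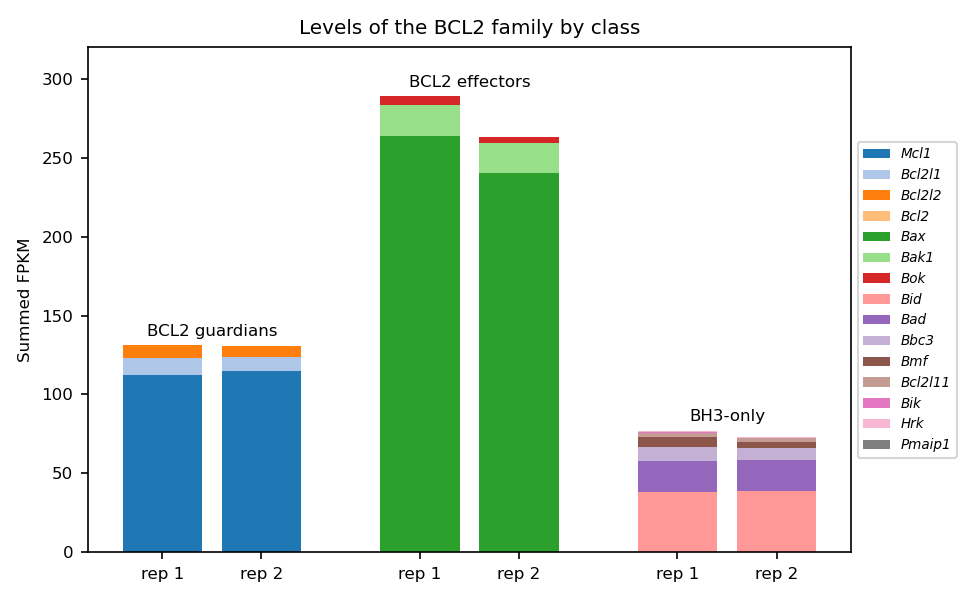
Summed FPKM of the BCL2 family by class and replicate, with 1 colour for each gene stacked from highest to lowest; bars start at 0. Mcl1 and Bax fill most of their bars, and the effector bars (289 and 263 FPKM) are the tallest.

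Beyond these 15 genes, 16 other BCL2-related genes had a median of 14.8 ± 2.18 FPKM. Of the 16, 11 were detected (68.8%, against 39.4% of all genes and 50.5% of protein-coding genes). The highest were the channel gene Vdac2, whose protein binds Bak1, at 316 ± 5.10 FPKM, the chaperone regulator Bag1 at 122 ± 1.57 FPKM, the autophagy gene Becn1 at 75.5 ± 6.22 FPKM and the mitophagy receptor Bnip3l at 61.6 ± 4.21 FPKM. The 5 genes below detection were the guardian relatives Bcl2a1a, Bcl2a1b, Bcl2a1d and Bcl2l10 and the related gene Bcl2l15. Bcl2a1a was listed at 0 in both replicates, and reads are hard to divide among the near-identical Bcl2a1 copies.

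All 9 genes of the apoptosome, the caspases and the IAPs were detected. Diablo (chr5:123511330-123524164), which is released from mitochondria and binds IAPs, was the highest at 49.2 and 51.5 FPKM. Apaf1, the scaffold of the apoptosome, stood at 13.1 and 13.3 FPKM, and its caspase, Casp9, at 8.94 and 7.90 FPKM. Casp2, an initiator that responds to DNA damage and centrosome faults, was the highest of the 4 caspases among the 49 genes, at 18.4 and 18.6 FPKM. The effector caspase Casp6 stood at 3.48 and 2.57 FPKM, and Casp8, the initiator of the death receptor route, was the lowest of the 9 genes at 1.23 and 1.57 FPKM. The replicate values of the caspases did not overlap, in the order Casp2, Casp9, Casp6 and Casp8.

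Of the IAP genes, Birc2 stood at 25.9 and 28.2 FPKM, Xiap at 14.5 and 16.8 FPKM and Birc3 at 4.81 and 5.72 FPKM, again with no overlap. Birc2 and Birc3 are paralogs that lie close together on chromosome 9, and Birc2 was at 5.16 ± 0.315 times the level of Birc3. Diablo was at 1.05 ± 0.0524 times the level of the 3 IAP genes together.

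Of 24 further genes of caspases and execution, 23 were in the table, with a median of 5.59 ± 0.796 FPKM. Of the 23, 15 were detected (65.2%, against 39.4% of all genes and 50.5% of protein-coding genes). The highest were the caspase substrate Parp1 at 228 ± 20.3 FPKM, the mitotic IAP Birc5 at 93.9 ± 1.52 FPKM and cytochrome c (Cycs) at 89.1 ± 1.08 FPKM. The 8 genes below detection included Naip2 (0 and 0.00624 FPKM) and the inflammatory caspase Casp4, which was listed at 0 in both replicates.

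The death receptor route had the lowest levels, with a median of 2.82 ± 0.221 FPKM over its 5 genes, and 4 of these were detected. Fas, the best-known death receptor and a p53 target, was not detected, at 0.183 and 0.238 FPKM. Tnfrsf10b, the mouse receptor for TRAIL and another p53 target, stood at 2.98 and 2.67 FPKM. The adaptor Fadd stood at 1.55 and 1.82 FPKM, and its values overlapped those of Casp8. Cflar, a caspase 8 relative that blocks this route, stood at 5.02 and 4.42 FPKM and was at 3.45 ± 0.901 times the level of Casp8. Cradd, the adaptor of caspase 2, stood at 3.85 and 3.44 FPKM.

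The 18 other genes of this route had a median of 3.62 ± 0.145 FPKM. Of the 18, 12 were detected (66.7%, against 39.4% of all genes and 50.5% of protein-coding genes). The highest were Faf1 at 43.5 ± 0.504 FPKM, the caspase 8 associated nuclear protein Casp8ap2 at 38.6 ± 1.01 FPKM, the histone chaperone Daxx at 33.5 ± 0.326 FPKM and the apoptosis inhibitor Faim at 25.2 ± 2.16 FPKM. The ligand genes Fasl, Tnfsf10 and Lta were listed at 0 in both replicates.

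Low members varied most between the replicates. Of the 42 detected members 20 were higher in replicate 2 (47.6%), against 48.8% of all detected genes. Without a pseudocount, the median absolute log2 ratio between replicates was 0.47 for the 6 members at 0.1 to 1 FPKM, 0.21 for 9 members at 1 to 5 FPKM, 0.11 for 20 members at 5 to 20 FPKM, 0.07 for 9 members at 20 to 100 FPKM and 0.06 for the 4 members at 100 FPKM or more. Over all genes at the same levels the medians were 0.44, 0.17, 0.09, 0.07 and 0.06. The largest log2 ratios without a pseudocount were -1.22 for Bik and -0.82 for Bmf, followed by -0.76 for Bcl2 and -0.63 for Pmaip1. All 4 were higher in replicate 1, and Bik, Bcl2 and Pmaip1 lay below 1 FPKM. Although 3 of them are BH3-only genes, 4 of the 8 genes of that class were higher in replicate 2. When the 49 genes were ordered by mean level, 21 of the 48 pairs of neighbours had overlapping replicate values, so neighbours such as Mdm2 and Diablo, or Bad and Bak1, were not separated.

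**Figure D5:**
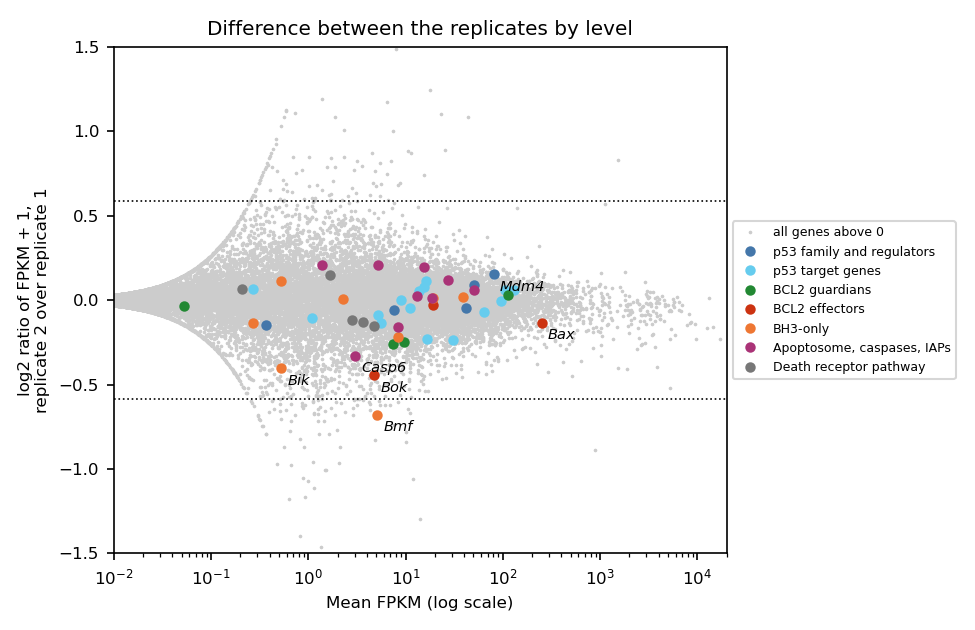
Log2 ratio of FPKM + 1, replicate 2 over replicate 1 (vertical axis), against mean FPKM (log axis) for the members, coloured by role, and for all genes above 0 in grey; dotted lines mark 1.5-fold, and 9 genes beyond a ratio of 1.5 in size and genes below 0.01 FPKM are not drawn. Bmf is the only member outside the dotted lines.

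Some members share their span with another gene, which can affect how reads were assigned. RefSeq spans of 17 of the 49 genes overlap that of another gene, and for 7 the partner had a mean of at least 1 FPKM. Bak1 lies wholly within the span of Ggnbp1 on the opposite strand, and Ggnbp1 stood at 4.11 ± 0.197 FPKM. Gpr137 (3.66 ± 0.0373 FPKM) overlaps Bad by 590 bases and Cela2a (5.45 ± 0.531 FPKM) overlaps Casp9 by 1025 bases, each on the opposite strand. Acp2 (6.73 ± 0.808 FPKM) overlaps Ddb2 by 2554 bases. Acoxl (3.16 ± 0.197 FPKM) runs on the same strand as Bcl2l11 and overlaps its start by 215 bases. The overlaps of Ikbip with Apaf1 and of E230016M11Rik with Gadd45a were 7 and 809 bases. The libraries were stranded, but no source used here says whether the quantification used strand, so these levels are uncertain to that extent.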

How the data were processed

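The authors deposited 1 table of FPKM, with a row for each gene and a column for each replicate that carries the description of its sample. RNA was prepared with TRIzol and depleted with Ribo-zero gold before stranded library construction, per the labels' protocols. The tools were CASAVA, TopHat2 and Cufflinks and the builds mm10 and GRCm38, per the submitters' processing notes, while versions, annotation and filters were not given in the sources used here.

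FPKM were used as deposited, without a filter unless stated. Among 2288 genes with a mean under 0.1 FPKM, 66.8% had replicate ratios close (0.01 on the log2 scale) to those of whole numbers up to 8. The median share was 11.1% over 501 factors by which 1 replicate was rescaled against the other. Effective lengths are unknown, however, so no reads were recovered and no count test was run. An FPKM of 0 can be a failed estimate and is called listed at 0. Replicate ratios used log2(FPKM + 1), which understates changes of low genes. With 1 group of 2 samples no p-value was computed. Intervals on shares of promoter windows are exact binomial ones (Clopper-Pearson) that treat windows as independent.

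A symbol was found for 28256 of 28592 genes by stable identifier, and spans, types and promoters came from RefSeq (GRCm38.p6). The 49 genes, 5 further gene lists and 2 marker lists were chosen with earlier results of these data known. From each further list the text names the 4 highest and 2 lowest genes and groups of up to 5 genes below detection. Of these, 1 gene is not reported here. Alternatives covered the detection limit, pseudocount, TPM scaling, centring, the members summed, half-site mismatches and each replicate left out. The 1.5-fold call and the half-site search were tested on simulated data. The same small noise was set at all levels and changes were planted only in genes at 5 FPKM or more. That test therefore does not cover calls on lower genes, whose replicates vary more. Python 3.11.15, numpy 2.4.6, pandas 2.3.3 and scipy 1.17.1 were used.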

Additional observations from a re-analysis of the deposited data

How the results depend on the processing

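No paired analysis was possible because the series has 1 group. The number of members detected was 42 at limits of 0.5 and 1 FPKM, after rescaling to TPM and in either replicate alone, 48 at a limit of 0.1 FPKM (98.0%, against 52.9% of all genes and 63.4% of coding genes) and 31 at a limit of 5 FPKM (63.3%, against 28.1% and 37.1%). The median level of 9.03 FPKM moved to 13.4 over detected members only and to 9.64 after rescaling to TPM, which raised replicate 1 by 5.65% and replicate 2 by 7.74%. It was 8.74 to 9.15 with a replicate left out. The summed guardian to pro-apoptotic ratio of 0.373 was 0.359 to 0.388 with a replicate left out. It moved to 0.475 against effectors only, to 1.74 against BH3-only genes, to 1.71 by medians and to 0.172 without Mcl1 and Bax. The share of member windows with a half-site moved to 56.9% when 1 mismatch was allowed, against 50.9% of all windows, a share inside the members' interval of 43.2% to 69.8%, so they did not stand apart there. The background of 8.36% moved to 6.72% over windows of detected genes. Mdm2 over Trp53 (1.14 to 1.26) and Mdm4 over Mdm2 (1.56 to 1.63) stayed above 1 in each replicate. Bmf alone was 1.5-fold apart under each pseudocount (0.1 and 0.01), centring and scaling tried among detected members. Of 49 member levels, 23 moved by more than their SD under TPM scaling. Unknown depth limits the 7 genes under 1 FPKM most.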

Other observations

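Genes of necroptosis, a form of cell death that does not need caspases, were uneven. They were singled out after their values were seen. The kinase gene Ripk1 stood at 7.42 and 7.66 FPKM and Ripk3 at 9.61 and 9.52 FPKM in replicates 1 and 2, whereas Mlkl, which forms the membrane pore downstream of Ripk3, stood at 0.0147 and 0.134 FPKM. The receptor Tnfrsf1a was detected at 2.55 and 2.36 FPKM, while its ligand gene Tnf was listed at 0 in replicate 1 and stood at 0.0207 FPKM in replicate 2.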
